A study of Mus musculus with 8 samples.

Results

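The cytosolic ribosomal protein genes are the 84 protein-coding genes whose mouse symbol begins with Rpl or Rps and goes on with a number, together with the P-stalk genes Rplp0, Rplp1 and Rplp2 and with Rpsa, out of 31053 genes in the count tables. Symbols of pseudogenes were left out. There were 52 genes of the large subunit and 32 of the small subunit. The members were chosen by name and by no measured value.

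Ribosomal proteins are assembled with ribosomal RNA in the nucleolus, one copy of nearly every protein per ribosome, and the finished subunits carry out translation in the cytosol. Their mRNAs are among the most abundant of a growing cell, and most begin with a terminal oligopyrimidine (TOP) tract, through which mTORC1 and LARP1 control how much of them is translated. Most mammalian ribosomal protein genes have many processed pseudogenes, so that a short read can fit several places in the genome.

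Fibro/adipogenic progenitors (FAPs) are the interstitial mesenchymal cells of skeletal muscle that can turn into adipocytes or myofibroblasts. All cells came from the hind limb muscles of mdx mice (strain C57BL/10ScSn-Dmdmdx/J, 45 days old), which lack dystrophin. Both cell states carry the mutation. FAPs were sorted as CD45-, CD31-, integrin alpha-7- and SCA-1+ cells, split into SCA1-High-FAPs and SCA1-Low-FAPs by surface SCA-1, and then kept in growth medium (GM) for 5 days, after which 3′ mRNA libraries were sequenced, with 4 libraries per cell state. The design text gives 4 mice for all 8 libraries, so that the cell states share mice, but it does not say that equal replicate numbers mark the same mouse. Unless the replicate block is named, the tests treat the 8 libraries as independent. Every log2 fold change below is SCA1-Low-FAPs over SCA1-High-FAPs. Values above 0 are higher in SCA1-Low-FAPs.

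Counts on genes ran from 1880561 to 3985656 per library. Levels are given as CPM, read counts made comparable between libraries of unequal depth with TMM factors. A 3′ library yields about 1 read position per transcript whatever its length, so CPM was not divided by length. The submitted counts hold only reads with a single position in the genome, and a member whose 3′ end has copies can be counted too low. For this reason the order of members by CPM is an order of counted reads and not of mRNA amounts.

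The libraries were checked against their labels. All 6 FAP and fibroblast markers were tested, with 1 called higher in SCA1-Low-FAPs (Ly6a), 1 called higher in SCA1-High-FAPs (Dcn, log2 fold change -2.08) and a median log2 fold change of -0.30. Pdgfra, which encodes CD140a, was not called and ranged from 157 to 291 CPM. Ly6a, which encodes SCA-1 itself, was at 492, 789, 645 and 919 CPM in SCA1-High-FAPs replicates 1 to 4 and 1099.7, 1079.7, 1156 and 1014 CPM in SCA1-Low-FAPs replicates 1 to 4 after the 5 days of culture. Its mRNA was thus higher in the state sorted for low SCA-1, with a log2 fold change of 0.61 (SE 0.170, edgeR adjusted p = 0.0341). DESeq2 without a block also called it (DESeq2 adjusted p = 0.0120). The call was lost in edgeR once replicate number entered as a block, at a log2 fold change of 0.65 (edgeR adjusted p = 0.0573). The libraries are named below by their sort label. Leucocyte markers summed to 25.3 to 48.0 CPM in SCA1-High-FAPs against 12.5 to 19.3 CPM in SCA1-Low-FAPs over 6 genes, with Adgre1 and Itgam at 0 counts, and Lyz2, the only one tested, was called higher in SCA1-High-FAPs (log2 fold change -1.42, edgeR adjusted p = 0.0153). Markers of other cells were low or at 0 for endothelial cells (0.483 to 7.39 CPM over 5 genes, Emcn at 0) and muscle satellite cells (0 to 12.5 CPM over 6 genes, Pax7, Myf5, Myod1 and Myog at 0). Adipocyte markers summed to 1200.3 to 6843 CPM in SCA1-High-FAPs against 123 to 670 CPM in SCA1-Low-FAPs over 6 genes, with 3 of 6 called higher in SCA1-High-FAPs by edgeR, 5 with the replicate block and 6 by DESeq2. Pericyte and smooth muscle markers summed to 460 to 1458 CPM in SCA1-High-FAPs against 1961 to 2987 CPM in SCA1-Low-FAPs over 5 genes, with 3 of the 3 tested called higher in SCA1-Low-FAPs. The part of these cell contents in the ribosomal protein values was not tested. In bulk samples, fewer cells of a type and less RNA per cell cannot be told apart.

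The TOP tract at the 5′ end is the sequence feature that ribosomal protein mRNAs are best known to share, and it was read from the start sites listed by RefSeq on GRCm38.p6. A promoter entry was found for 64 of the 84 members. A start was counted as TOP when the base at the listed start was a C, followed on the strand of the gene by at least 4 pyrimidines (C or T). By this rule 13 of 64 members (20.3%) had a TOP start, against 3.01% of the 27025 genes in the table and 0 of 69 mitochondrial ribosomal protein genes. The match rests on the exact base that RefSeq lists as the start, so the absence of a match says only that the letters are not at that base. Below are 15 bases before and 15 bases from the listed start on, 5′ to 3′, with the TOP tract in capitals. The first 5 genes have a TOP start, and Rps6, Rpl15 and Rpl35a among them are the members whose levels differed most between libraries apart from Rpl39l. Rps23, Rpl7a, Rps2 and Rpl19 had no TOP match, though they differed 4.52, 4.27, 3.67 and 3.17-fold between the highest and lowest library. Rps15a and Rps10, which have a TOP start, differed 1.21 and 1.33-fold. Whether a TOP start goes with the spread was not tested. Rpl35a has 3 listed starts, of which 1 is a TOP start. The last 3 are the paralogues Rps27l, Rpl36al and Rpl22l1, which had the largest log2 fold changes and no TOP match. Most members with a promoter entry likewise had no TOP match.
Rps6 (chr4:86857353-86857382, - strand): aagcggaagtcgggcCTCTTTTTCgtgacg
Rpl15 (chr14:18270972-18271001, - strand): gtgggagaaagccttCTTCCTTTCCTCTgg
Rpl35a (chr16:33056467-33056496, + strand): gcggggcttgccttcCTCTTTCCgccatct
Rps27 (chr3:90213634-90213663, - strand): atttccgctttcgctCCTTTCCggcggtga
Rps18 (chr17:33955651-33955680, - strand): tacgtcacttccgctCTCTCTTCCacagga
Rps27l (chr9:66946071-66946100, + strand): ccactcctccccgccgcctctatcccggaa
Rpl36al (chr12:69184053-69184082, - strand): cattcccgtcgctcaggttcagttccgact
Rpl22l1 (chr3:28805493-28805522, + strand): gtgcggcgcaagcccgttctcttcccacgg
The remaining 8 members with a TOP start were Rpl14, Rpl28, Rpl35, Rpl38, Rplp2, Rps10, Rps15a and Rps21. Rps27 and its paralogue Rps27l thus differed at the listed base, Rps27 beginning with a tract of 7 pyrimidines and Rps27l with a G. Neither of the 2 listed starts of Rps27l was a TOP start. In Rps27l, and in Rpl22l1, pyrimidines follow directly after the G, so the contrast depends on the exact base listed.

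The members covered a wide range of counted levels. Rpl10l, a testis paralogue of Rpl10, had 0 counts in every library, and Rpl3l, the striated muscle paralogue of Rpl3, had 2 counts, both in SCA1-High-FAPs replicate 2. These 2 genes were not tested, and the other 82 passed the filter on low counts. Of the 84 members, 34 had a mean over 1000 CPM and 6 a mean under 100 CPM, and the 5 highest held 21.2% of all ribosomal protein counts. Rplp1, an acidic protein of the ribosomal stalk that binds elongation factors, stood highest at 3956, 5179, 5489 and 5255 CPM in SCA1-High-FAPs replicates 1 to 4 and 5697, 5564, 5278 and 5786 CPM in SCA1-Low-FAPs replicates 1 to 4. The next were Rps26 with a mean of 3835 CPM, Rps12 with 2906 CPM, Rps20 with 2892 CPM and Rps14 with 2708 CPM, all proteins of the small subunit. Rps12 and Rps20 did not differ beyond their spread over libraries, and the range of Rps14 reached into both. At the lower end of the tested members stood Rpl39l with 16.6 CPM, Rps6 with 52.3 CPM, Rpl15 with 61.2 CPM, Rpl7l1 with 70.8 CPM and Rpl35a with 103 CPM. Rps6, which encodes the protein phosphorylated by S6 kinases, had the lowest counted level of the 32 small subunit genes.

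The family as a whole took overlapping shares of the counts in both cell states. It held 7.36%, 8.12%, 7.85% and 9.10% of counts on genes in SCA1-High-FAPs (8.11% ± 0.733, SD, n = 4) against 8.59%, 8.01%, 9.11% and 8.33% in SCA1-Low-FAPs (8.51% ± 0.466, SD, n = 4). The difference of 0.402 percentage points was smaller than the pooled spread between libraries of 0.614 points. With 1 library left out it ran from 0.154 points (without SCA1-High-FAPs replicate 1) to 0.734 points (without SCA1-High-FAPs replicate 4), and without SCA1-Low-FAPs replicate 3 it was 0.202 points. Large subunit genes held 4.25% ± 0.383 and 4.48% ± 0.253 of counts, and small subunit genes 3.86% ± 0.351 and 4.03% ± 0.225 (SD, n = 4 each). The ratio of large to small subunit counts was 1.10 ± 0.00989 in SCA1-High-FAPs against 1.11 ± 0.0283 in SCA1-Low-FAPs (SD, n = 4), and the ranges overlapped. As a share of all tallied alignments rather than of counts on genes, the family stood at 4.17% ± 0.320 and 4.16% ± 0.232.

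**Figure D1:**
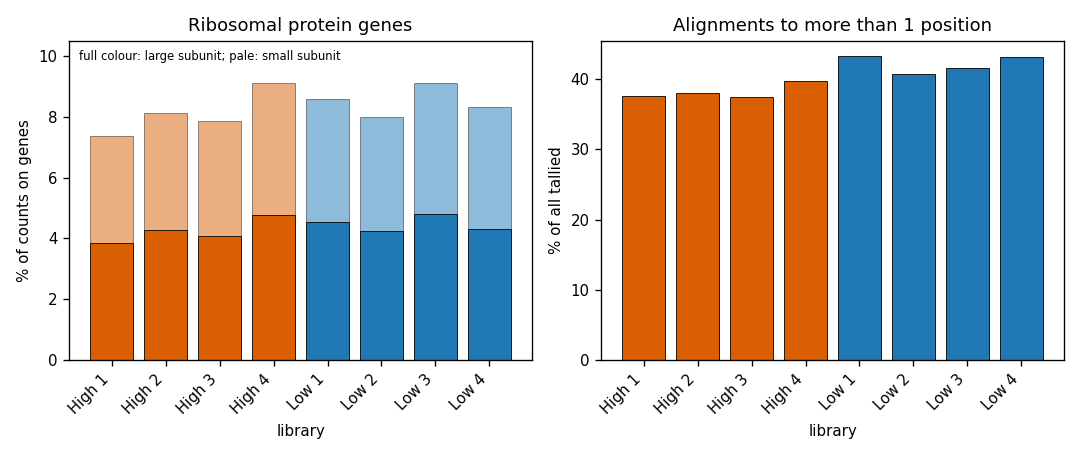
Left, percent of counts on genes held by ribosomal protein genes in each of the 8 libraries, with the large subunit in full colour and the small subunit in pale colour (orange, SCA1-High-FAPs and blue, SCA1-Low-FAPs). The totals run from 7.36% to 9.11% and overlap, while on the right the share of alignments to more than 1 position is 37.5% to 39.7% in SCA1-High-FAPs against 40.8% to 43.3% in SCA1-Low-FAPs.

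Reads of a member whose 3′ end has copies can align to more than 1 position, and such reads were given to no gene by the authors. Their share of all tallied alignments was 37.6%, 38.1%, 37.5% and 39.7% in SCA1-High-FAPs against 43.3%, 40.8%, 41.5% and 43.1% in SCA1-Low-FAPs. The states did not overlap, and the difference of 3.98 percentage points gave p = 0.0286 in a two-sided exact permutation test, the smallest value that 70 assignments of 4 against 4 libraries allow. When the states were exchanged only within equal replicate numbers, the exact permutation p was 0.125, the smallest that 16 assignments allow. The tally may count each position of a read and not the read itself. How many of these reads came from ribosomal protein mRNAs was not tested. In the transcript annotation 300 pseudogenes are named after a member. Of the 84 members, 14 had another transcript that matched the last 100 bases over at least 90 bases at 95% identity or more, and in 47 over 50% of the last 300 bases lay in such copied stretches of at least 60 bases.

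No ribosomal protein gene passed the test between the cell states. Of 82 tested members 0 were called in either direction (edgeR quasi-likelihood test, adjusted p-value under 0.05 and log2 fold change beyond 0.5), where 7.68% of all 10181 tested genes were called, 3.32% towards SCA1-Low-FAPs and 4.36% towards SCA1-High-FAPs. At any fold change 0 members passed, against 7.74% of all tested genes. DESeq2 called 0 members and 6.71% of its genes, and edgeR with the replicate number as a block called 0 members and 6.85% of genes. At an unadjusted p under 0.05 edgeR gave 6 members, against 21.3% of all tested genes, and DESeq2 gave 6. The CPM of the states did not overlap in 3 members (Rps27l, Rpl8 and Rpl38), against 14.1% of all tested genes.

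The log2 fold changes of the members were small and mostly of one sign. They ranged from -0.60 to 0.56 with a median of 0.084, beside a median of 0.00029 over all tested genes. They were above 0 in 67 of 82 members (81.7%) and in 5094 of the 10181 tested genes, and the spread between libraries of the family's median was 0.115 on the same scale. The medians of the subunits were 0.084 over 50 large subunit genes and 0.084 over 32 small subunit genes. Within 0.25 of 0 lay 69 members. The 95% confidence interval of the log2 fold change lay inside 0.5 on either side for 48 members and inside 1 for 73. For 34 the interval reached beyond 0.5. When the library size was set to the summed member counts, the median over members was -0.013 and that over all genes -0.10. This scaling holds the family's sum equal between libraries, so a family median near 0 is built into it. The family's median stayed above that of all genes.

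**Figure D2:**
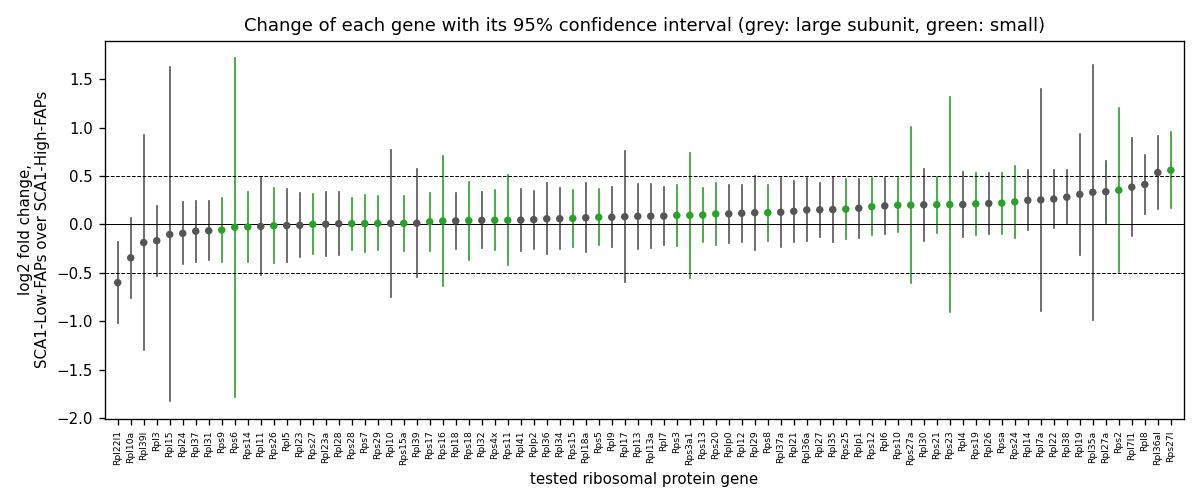
Log2 fold change, SCA1-Low-FAPs over SCA1-High-FAPs, of the 82 tested ribosomal protein genes in order of size, with 95% confidence intervals as lines (grey, large subunit and green, small subunit) and dashed lines at 0.5 on either side. Values run from -0.60 for Rpl22l1 to 0.56 for Rps27l, and the longest intervals belong to Rps6 and Rpl15.

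The 3 members with a log2 fold change beyond 0.5 were all paralogues of a core ribosomal protein gene rather than the core gene itself. A change of this size at any p was seen in 30% of all tested genes. Rps27l (chr9:66946086-66949516, + strand, GRCm38), the paralogue of Rps27 and known as a target of p53, was at 194, 208, 116 and 245 CPM in SCA1-High-FAPs replicates 1 to 4 and 281, 302, 267 and 277 CPM in SCA1-Low-FAPs replicates 1 to 4. All SCA1-Low-FAPs libraries were above all SCA1-High-FAPs libraries. The log2 fold change was 0.56 (SE 0.185, 95% interval 0.17 to 0.95), with an edgeR adjusted p of 0.0736 and a DESeq2 adjusted p of 0.0572. Rps27 itself was at 718, 651, 641 and 839 CPM in SCA1-High-FAPs replicates 1 to 4 and 648, 829, 759 and 617 CPM in SCA1-Low-FAPs replicates 1 to 4, and its log2 fold change of 0.0014 had an interval from -0.31 to 0.31. Rps27 had 1 copy of its last 100 bases and Rps27l 0. Of the last 300 bases 100% were copied in Rps27 and 48.3% in Rps27l. The part of lost reads in this contrast was not tested.

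Rpl36al (chr12:69182731-69184083, - strand), the autosomal paralogue of the X-linked Rpl36a, was at 121, 95.4, 96.9 and 158 CPM in SCA1-High-FAPs replicates 1 to 4 and 149, 172, 168 and 196 CPM in SCA1-Low-FAPs replicates 1 to 4. Only SCA1-High-FAPs replicate 4 reached into the range of the other state. Its log2 fold change was 0.54 (SE 0.178, edgeR adjusted p = 0.0757), and an exon of it overlaps an exon of the counted gene Gm49383 on the same strand, whose reads cannot be told apart there. Rpl36a had a log2 fold change of 0.15 with an interval of -0.18 to 0.47. Of the last 300 bases 100% were copied in Rpl36a and 74% in Rpl36al, and the part of lost reads was not tested.

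Rpl22l1 (chr3:28805436-28807424, + strand), the paralogue of the RNA-binding protein gene Rpl22, was the member with the lowest log2 fold change. It was at 288, 248, 197 and 268 CPM in SCA1-High-FAPs replicates 1 to 4 and 129, 182, 231 and 118 CPM in SCA1-Low-FAPs replicates 1 to 4. Only SCA1-Low-FAPs replicate 3 lay above the lowest SCA1-High-FAPs library. The log2 fold change was -0.60 (SE 0.200, 95% interval -1.02 to -0.18, edgeR adjusted p = 0.0773). Rpl22 was at 625, 769, 824 and 860.3 CPM in SCA1-High-FAPs replicates 1 to 4 and 898, 971, 843 and 982 CPM in SCA1-Low-FAPs replicates 1 to 4, and its log2 fold change had the other sign, at 0.26 with an interval of -0.03 to 0.56. In mammalian cells the Rpl22 protein is known to hold down Rpl22l1. Of the last 300 bases 72% were copied in Rpl22l1 and 0% in Rpl22. Neither the part of lost reads nor the difference between the changes of the pair was tested.

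Leaving out single libraries changed these values and calls. The log2 fold change of Rps27l was 0.38 (edgeR adjusted p = 0.154) and that of Rpl36al 0.45 (edgeR adjusted p = 0.173) without SCA1-High-FAPs replicate 3, and that of Rpl22l1 was -0.47 (edgeR adjusted p = 0.213) without SCA1-Low-FAPs replicate 4. Without both of these libraries the values were 0.38, 0.37 and -0.57, and none was called. Without SCA1-High-FAPs replicate 4, Rps27l and Rpl36al were called, with log2 fold changes of 0.70 and 0.71. Without SCA1-High-FAPs replicate 3 or SCA1-Low-FAPs replicate 3, Rpl22l1 was called at -0.70 and -0.82. All 3 were also called when no filter beyond 1 count was applied, at 0.57, 0.55 and -0.58.

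The other paralogues were less well measured. Rpl7l1, a homologue of Rpl7 linked to ribosome assembly, was at 47.1, 45.2, 84.3 and 68.9 CPM in SCA1-High-FAPs replicates 1 to 4 and 103, 52.3, 74.5 and 90.5 CPM in SCA1-Low-FAPs replicates 1 to 4, and its 95% interval of -0.12 to 0.89 took in both 0 and 0.5. Of its last 100 bases 10 copies were found, the most of any member named here. Rpl39l, the testis paralogue of Rpl39, was at 20.2, 28.0, 17.5 and 4.40 CPM in SCA1-High-FAPs replicates 1 to 4 and 8.70, 32.7, 9.83 and 11.4 CPM in SCA1-Low-FAPs replicates 1 to 4, and its interval was the wide -1.30 to 0.93. Rpl39, Rpl7, Rpl3, Rpl10 and Rps4x, the core genes of the remaining pairs, had log2 fold changes of 0.01, 0.09, -0.17, 0.01 and 0.04. Rps4l, the partner of Rps4x, was not analysed here. After the 5 tested paralogues were set aside, the other 77 members lay between -0.34 and 0.41.

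**Figure D3:**
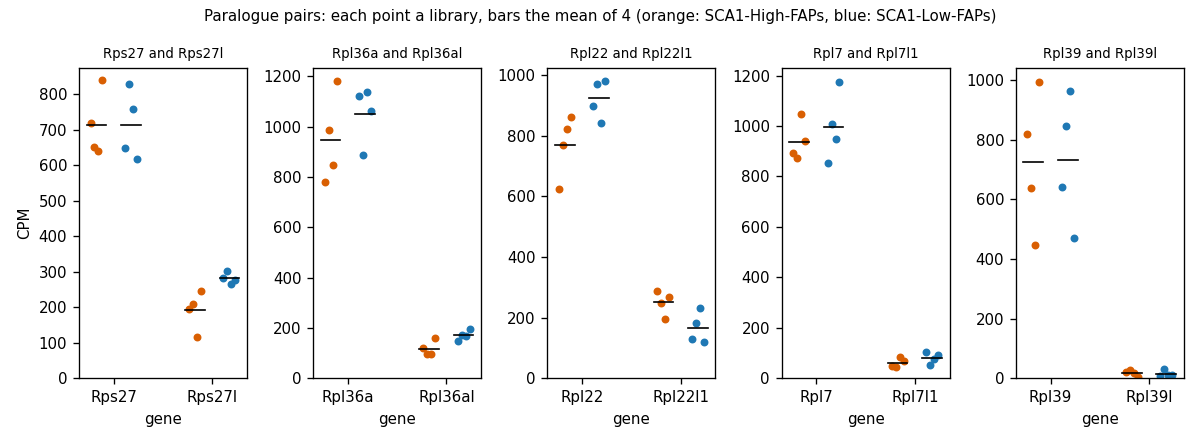
CPM of 5 core genes and their paralogues, each point a library and each bar the mean of 4 libraries of a cell state. Rps27l lies between 116 and 245 CPM in SCA1-High-FAPs against values between 267 and 302 CPM in SCA1-Low-FAPs, Rpl22l1 lies between 197 and 288 CPM and between 118 and 231 CPM, and Rpl39l stays under 33 CPM.

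Among the core genes, Rpl8, Rpl38 and Rpl27a of the large subunit had the lowest unadjusted p-values. Rpl8, which lines the peptidyl transferase centre, was at 826, 1054, 1051 and 987 CPM in SCA1-High-FAPs replicates 1 to 4 and 1417, 1184, 1119.6 and 1496 CPM in SCA1-Low-FAPs replicates 1 to 4. The states did not overlap, with a log2 fold change of 0.41 (SE 0.146, edgeR adjusted p = 0.0974). Rpl38, whose dose is known to affect translation of Hox mRNAs in the mouse embryo, was at 552, 668, 581 and 667 CPM in SCA1-High-FAPs replicates 1 to 4 and 800.4, 716, 738 and 744 CPM in SCA1-Low-FAPs replicates 1 to 4, with a log2 fold change of 0.28 (SE 0.133, edgeR adjusted p = 0.232) and no overlap. Rpl27a had a log2 fold change of 0.34 (edgeR adjusted p = 0.211) and overlapped. In the other direction Rpl10a was at 119, 137, 89.3 and 143 CPM in SCA1-High-FAPs replicates 1 to 4 and 92.8, 101, 121 and 70.5 CPM in SCA1-Low-FAPs replicates 1 to 4, with a log2 fold change of -0.34 (SE 0.195, edgeR adjusted p = 0.336).

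The members with known roles outside the ribosome or at its active sites did not pass the test. Rpl5 and Rpl11, which with 5S RNA bind and inhibit Mdm2, ranged from 171 to 333 CPM and from 147 to 309 CPM. Their log2 fold changes were -0.01 with an interval of -0.39 to 0.37 and -0.02 with an interval of -0.52 to 0.48. Rpl3, at the peptidyl transferase centre, had -0.17 (SE 0.172), and Rpl10, a late-joining protein of the large subunit, had 0.01 (SE 0.337). Rpl13a, which is also known as part of an interferon-gamma responsive silencing complex, had 0.08 (SE 0.156).

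Of the stalk genes, Rplp0 had a log2 fold change of 0.11 (interval -0.19 to 0.41), Rplp1 0.17 (interval -0.14 to 0.47) and Rplp2 0.05 (interval -0.25 to 0.35). Of the small subunit genes, Rps3 at the mRNA entry had 0.09 (interval -0.22 to 0.41) and Rpsa, the laminin receptor homologue, 0.22 (interval -0.10 to 0.54). Rps14, whose loss underlies the anaemia of 5q- syndrome, had -0.03 (interval -0.39 to 0.34). Rps27a, made as a fusion with ubiquitin, had 0.20, but its interval of -0.60 to 1.00 was wider than those of the other genes in this group.

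The members also differed between libraries of the same cell state. Between the highest and the lowest of all 8 libraries, a range that takes in both states, the tested members differed 1.57-fold at the median. Of them 34 differed by less than 1.5-fold and 9 by more than 3-fold, where 36.7% of all tested genes passed 3-fold. Rps28 was the steadiest, at 1270.3, 1313, 1227 and 1369 CPM in SCA1-High-FAPs replicates 1 to 4 and 1315, 1255, 1331 and 1309 CPM in SCA1-Low-FAPs replicates 1 to 4, a 1.12-fold range. Rps6 was at 85.2, 17.2, 16.3 and 93.1 CPM in SCA1-High-FAPs replicates 1 to 4 and 25.6, 47.9, 101 and 32.5 CPM in SCA1-Low-FAPs replicates 1 to 4, a 6.19-fold range. The libraries of SCA1-High-FAPs fell into high values in replicates 1 and 4 and low values in replicates 2 and 3, and in SCA1-Low-FAPs replicate 3 stood highest.

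Rpl15, a large subunit protein, was high and low in the same libraries, at 109.7, 19.0, 19.6 and 105 CPM in SCA1-High-FAPs replicates 1 to 4 and 30.9, 69.2, 99.3 and 36.7 CPM in SCA1-Low-FAPs replicates 1 to 4. Rpl7a, also of the large subunit, was at 584, 282, 138 and 478 CPM in SCA1-High-FAPs replicates 1 to 4 and 399, 543, 588 and 237 CPM in SCA1-Low-FAPs replicates 1 to 4. Rps23, at the decoding centre, was at 526, 390.2, 176 and 796 CPM in SCA1-High-FAPs replicates 1 to 4 and 553, 505, 792 and 328 CPM in SCA1-Low-FAPs replicates 1 to 4. SCA1-High-FAPs replicate 3 was the lowest of all 8 libraries for Rpl7a and Rps23, and SCA1-Low-FAPs replicate 4 the lowest of its state.

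The other members past 3-fold were Rpl35a, Rps2, Rps27a, Rpl19 and Rpl39l. Of the 9, 7 were lowest among the SCA1-High-FAPs libraries in replicate 3 and 6 were highest in replicate 4, while among the SCA1-Low-FAPs libraries 7 were highest in replicate 3 and 5 lowest in replicate 4. Rpl39l, with 311 counts over all libraries, did not follow the others. Together these 9 genes, which were chosen here for their range, held 1.17% to 3.95% of the ribosomal protein counts in SCA1-High-FAPs against 1.93% to 4.08% in SCA1-Low-FAPs.

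When the mean of each state was taken off, a single component held 68.2% of the remaining variance of log2 CPM over the 82 members, and the first component of the other tested genes held 26.1%. Both percentages come from genes left unscaled, and from gene sets of unequal size. Members with a large spread thus counted most, with weights of 2.57 for Rps6 and 2.54 for Rpl15 against 0.071 for Rps28. The weights were positive in 52 members and negative in 30. The library scores on the component of the members were 0.31, -0.18, -0.60 and 0.46 in SCA1-High-FAPs against -0.15, 0.14, 0.37 and -0.36 in SCA1-Low-FAPs, so that each state had libraries on both sides. On the first component of the other tested genes, with its sign set to match, the scores were 0.34, 0.018, -0.52 and 0.16 against -0.29, 0.64, -0.028 and -0.32. SCA1-High-FAPs replicate 3 and SCA1-Low-FAPs replicate 4 were thus the lowest of their state on both components, while the highest libraries were others, and the pattern was not shown to be particular to the family. Rps26 and Rps14, among the members with negative weights, went the other way. Rps26 was at 2758, 3828, 4779.6 and 4045 CPM in SCA1-High-FAPs replicates 1 to 4 and 3838, 2923, 3565 and 4941 CPM in SCA1-Low-FAPs replicates 1 to 4. Rps14 was at 2094, 2559, 3463 and 2813 CPM in SCA1-High-FAPs replicates 1 to 4 and 2558, 2334, 2416 and 3425 CPM in SCA1-Low-FAPs replicates 1 to 4. Both were highest of their state in SCA1-High-FAPs replicate 3 and SCA1-Low-FAPs replicate 4, where Rps6 was low.

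**Figure D4:**
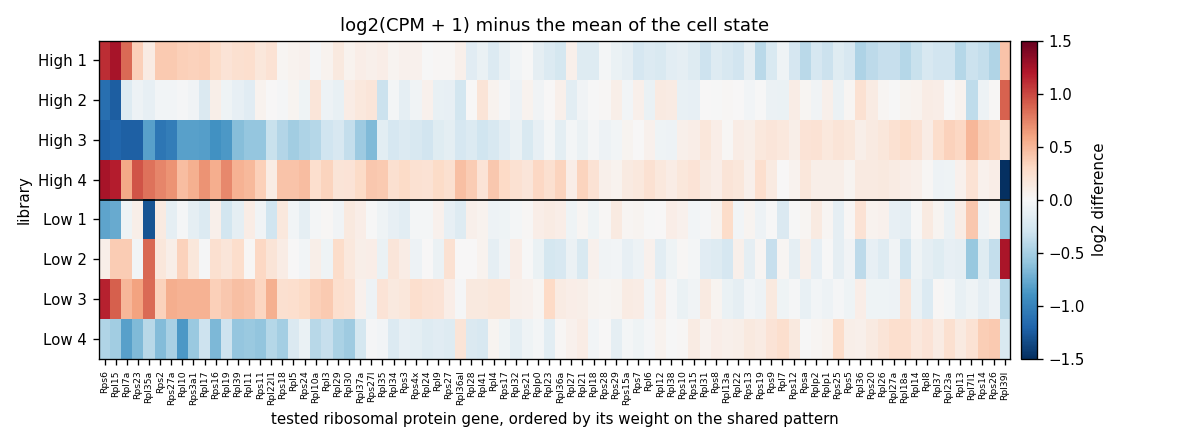
Log2(CPM + 1) of the 82 tested ribosomal protein genes (columns, ordered by their weight on the shared component) in the 8 libraries (rows), minus the mean of the cell state, in red above and in blue below it. At the left, Rps6, Rpl15, Rpl7a and Rps23 are high in SCA1-High-FAPs replicates 1 and 4 and SCA1-Low-FAPs replicate 3 and low in SCA1-High-FAPs replicate 3 and SCA1-Low-FAPs replicate 4.

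The spread was largest in members counted at low levels. The SD of log2 CPM within a state had a median of 0.22 over the 82 members and of 0.38 over the other tested genes. For the 19 members under 300 CPM the median was 0.42, beside 0.39 for 9635 other genes in this range. For the 29 members from 300 to 1000 CPM it was 0.20, beside 0.21 for 382 other genes, and for the 34 members above that it was 0.19, beside 0.26 for 82 other genes. Across the 82 members the SD and the mean CPM had a Spearman's rho of -0.56, the SD and the copied share of the last 300 bases had 0.083, and the SD and the number of named pseudogenes had 0.15. These are descriptions over genes that share libraries and are not independent.

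**Figure D5:**
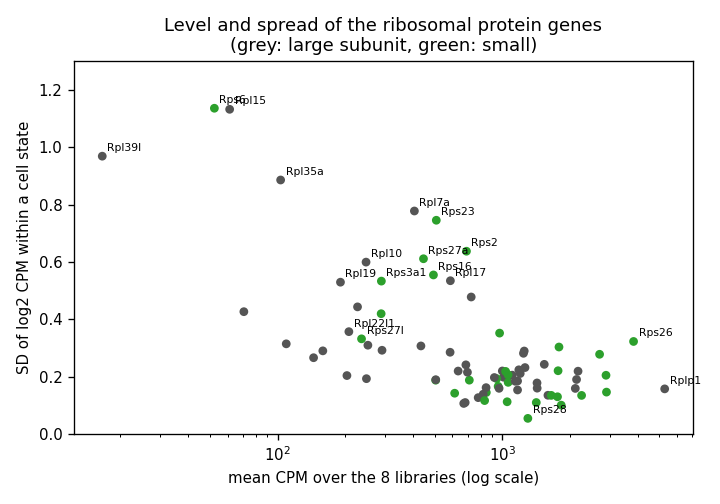
SD of log2 CPM within a cell state against the mean CPM over the 8 libraries (log axis) for the 82 tested ribosomal protein genes, with large subunit genes in grey and small subunit genes in green. Rps6 and Rpl15 stand highest at 1.14 and 1.13, above Rpl39l at 0.97, and Rps28 lowest at 0.054.

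One other tally of the libraries, picked after the values were seen, had the same ends. The shares of reads on no gene and of alignments to more than 1 position did not have them in both states. The share of reads that fitted more than 1 overlapping gene, and were therefore counted for none, was 0.664%, 0.674%, 0.605% and 0.732% of reads with a single position in SCA1-High-FAPs against 0.772%, 0.709%, 0.793% and 0.675% in SCA1-Low-FAPs. In both states the library with the lowest score of the members had the lowest share and the one with the highest score the highest share. Of the 84 members, 19 have an exon that overlaps an exon of another counted gene, 17 on the opposite strand and 2 on the same strand. Rpl15 with Nkiras1, Rps2 with Snhg9 and Rps27a with Clhc1 are among the first kind, and the strand setting of the counting is not given in the sources used here. The part of these overlaps in the spread was not tested.

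Genes of ribosome production and of translation were set beside the ribosomal protein genes. Of 51 ribosome biogenesis factors 5 were called higher in SCA1-Low-FAPs (3.32% of all tested genes) and 0 in the other direction, with a median log2 fold change of 0.44 and 47 of 51 above 0. Nop56, a core protein of box C/D snoRNPs, was at 92.8, 68.7, 90.6 and 69.3 CPM in SCA1-High-FAPs replicates 1 to 4 and 145, 145, 140.2 and 173 CPM in SCA1-Low-FAPs replicates 1 to 4, with no overlap and a log2 fold change of 0.91 (SE 0.166, edgeR adjusted p = 0.00284). Lyar, a nucleolar protein, rose by 0.77 (SE 0.182, edgeR adjusted p = 0.0147) and Pno1, needed for assembly of the small subunit, by 1.28 (SE 0.374, edgeR adjusted p = 0.0441) on the log2 scale. The other factors called were Ddx21, a nucleolar helicase, and Mdn1, a large subunit assembly ATPase. With the replicate block 3 of the 5 were called, without Ddx21 (edgeR adjusted p = 0.0927) and Mdn1 (edgeR adjusted p = 0.105), and DESeq2 called 6.

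Other parts of the translation apparatus had no gene called by edgeR. Among all tested genes 21.3% had an unadjusted edgeR p under 0.05. Of 74 tested mitochondrial ribosomal protein genes 0 were called (7 at an unadjusted p under 0.05, 0 by DESeq2), with a median log2 fold change of 0.15 and 55 above 0. Of 36 initiation factors 0 were called by edgeR (12 at an unadjusted p under 0.05) and 2 by DESeq2, both higher in SCA1-Low-FAPs, with a median of 0.18. For 10 elongation and termination factors the numbers were 0 called by edgeR and by DESeq2, 5 at an unadjusted p under 0.05 and a median of 0.28. For 14 RNA polymerase I genes they were 0, 0, 1 and 0.096, and for 19 other mRNAs known to carry a TOP start, which share 11 genes with the translation factor and biogenesis lists, 0, 0, 2 and 0.077.

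Of 15 tested genes of mTORC1 and Myc, Deptor, an inhibitor of mTOR, was called higher in SCA1-High-FAPs at 86.2, 66.9, 88.9 and 49.9 CPM in SCA1-High-FAPs replicates 1 to 4 and 11.6, 8.71, 27.3 and 7.39 CPM in SCA1-Low-FAPs replicates 1 to 4 (log2 fold change -2.38, SE 0.362, edgeR adjusted p = 0.00129), and none of the others was called. Of 13 p53 targets 4 were called higher in SCA1-Low-FAPs, namely Cdkn1a, Ccng1, Zmat3 and Phlda3, with Cdkn1a at 353 ± 30.5 CPM in SCA1-High-FAPs against 793 ± 195 CPM in SCA1-Low-FAPs (SD, n = 4). DESeq2 called 4 higher in SCA1-Low-FAPs and 1, Trp53inp1, higher in SCA1-High-FAPs (log2 fold change -0.95, DESeq2 adjusted p = 0.0427 and edgeR adjusted p = 0.0551). All 12 proliferation genes were called higher in SCA1-Low-FAPs, with a median log2 fold change of 1.09 and with Aurka, Ccna2 and Plk1 leading at 2.27, 1.34 and 1.26. These are RNA levels after the 5 days in GM. The paper reports that SCA1-High-FAPs doubled faster ex vivo, while their share of Ki-67 positive cells fell sooner as they reached confluence. In vivo it reports EdU in a larger fraction of SCA1-High-FAPs. Whether the ribosomal protein genes differ from these lists was not tested.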

How the data were processed

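The deposited files held raw counts per Ensembl gene, made by the authors from QuantSeq 3′ FWD libraries by trimming with bbduk, alignment to mm10 with STAR and counting with htseq-count on Ensembl release 93 genes. The authors left out reads with more than 1 position, and the summary entries of the files were not taken as genes, among them 13.3% to 16.4% of single-position reads on no gene. The strand setting and minimum quality of the counting are not given in the sources used here. Of 31053 identifiers 31011 matched GENCODE M21 for names and positions.

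All genes were compared in R 4.3.3 with edgeR 4.0.16 (robust quasi-likelihood test, TMM, filterByExpr with minima of 10 counts and 15 in total, Benjamini-Hochberg adjustment), fitted on the whole table of 8 libraries with 4 per cell state and no pairing. Confidence intervals use a standard error taken from the log2 fold change and F statistic of that fit. They use its total degrees of freedom, which add those borrowed across genes to the residual ones. DESeq2 1.42.0, the study's tool, was an alternative. A count of 3 corresponded to 0.753 to 1.60 CPM, for counting error only. Log2 CPM took a prior count of 2. Copies of 3′ ends were searched with blastn 2.17.0 among GENCODE M21 transcripts, with 1 transcript per member, and start sites are from RefSeq. Named were the 3 largest log2 fold changes in each direction, the 5 highest and 5 lowest levels, genes of known roles, paralogue pairs and called genes of the companion lists, at most 3 per direction. Rpl38, Rpl27a, Rps28, Rpl7a, Rps23, the members past 3-fold and the tally of reads on overlapping genes were chosen after their values were seen. The 10 pathway and proliferation lists, the 6 marker lists, the members and the tests were chosen with earlier results of these data known. A list of snoRNA host genes had 2 tested genes and 0 called (1 at an unadjusted p under 0.05, 0 by DESeq2). The tests were also tried on simulated counts. The series' design text says the 4 libraries of a state are biological replicates and that 4 mdx mice gave both states.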

Additional observations from a re-analysis of the deposited data

Results flagged for a closer look

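Of 72 sets of 4 libraries examined for the named ribosomal protein genes and the summed measures, 4 had a library far from the other 3, and chance gives about 1 in 20. Rps20 in SCA1-High-FAPs replicate 1 stood at 2089 CPM against 3006 to 3026 CPM in the other libraries of its state. Rps12 in the same library stood at 2269 CPM against 2818 to 2914 CPM. Rpl39l in SCA1-Low-FAPs replicate 2 stood at 32.7 CPM against 8.70 to 11.4 CPM. Rpl3l in SCA1-High-FAPs replicate 2 stood at 0.904 CPM, from 2 counts, against 0 in the other libraries.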

How the results depend on the processing

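The count of 0 ribosomal protein genes called was unchanged with RLE factors, library size only, TMM factors without these genes, a filter of 10 counts in every library, DESeq2, edgeR with the replicate block and an adjusted p of 0.01. With no filter beyond 1 count 2 were called higher in SCA1-Low-FAPs (Rps27l and Rpl36al) and 1 higher in SCA1-High-FAPs (Rpl22l1), 3 in all at an adjusted p under 0.05. With the library size set to the summed member counts Rpl22l1 was called, 1 in all. With a library left out, 0 to 2 were called higher in SCA1-Low-FAPs, 0 to 1 higher in SCA1-High-FAPs and 0 to 2 at any fold. Without both SCA1-High-FAPs replicate 3 and SCA1-Low-FAPs replicate 4, an alternative chosen after seeing the data, 0 were called. The median log2 fold change of the members ran from -0.013 to 0.18 over all alternatives. The lower end came from the scaling to the summed member counts, which holds the family's sum equal between libraries. The log2 ratio of large to small subunit was 0.012 from summed counts and -0.028 from mean log2 CPM per subunit. The difference in alignments to more than 1 position ran from 3.60 to 4.47 points with a library left out, each with the smallest p that 35 assignments allow, 0.0571, and with the states exchanged only within equal replicate numbers, an alternative chosen after seeing the data, it was 3.98 points with an exact permutation p of 0.125. The causes of these changes were not tested.

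The replicate numbers occur in both states, but the correlations of deviations between equal numbers were -0.017, 0.0067, -0.014 and -0.050, so they were not taken as pairs. No library deviated most like its own number. SCA1-High-FAPs replicates 1, 2, 3 and 4 were most like SCA1-Low-FAPs replicates 2, 1, 4 and 3. Their correlations were 0.16, 0.13, 0.25 and 0.14, in that order. Fits with these pairs as a block were not run. With the replicate block edgeR called 0 members at an adjusted p under 0.05 and 697 genes in all against 782 without it, and DESeq2 with the block called 1, Rps27l, at 0.61 (DESeq2 adjusted p = 0.0463). Xist was at 0 CPM in replicates 1 and 2 and at 342 to 507 CPM in replicates 3 and 4 of both states. Equal numbers were thus alike in Xist, though not in the correlations. These values do not settle whether equal numbers mark the same mouse. With the block the log2 fold changes of Rps6 (0.12 and 0.18 in edgeR and DESeq2), Rpl15 (0.14 and 0.21), Rpl5 (0.015 and 0.016) and, in edgeR, Rpl10 (-0.00059) changed sign. Of the genes of the companion lists 22 were called, and 20 with the block.

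For the 31 named members 558 values were recomputed, of which 480 kept sign and call, 9 gained the call (Rps27l, Rpl36al and Rpl22l1) and 69 changed sign, in 17 members that were not called under any setting. Setting the library size to the summed counts holds the family's sum equal between libraries, so sign changes of small values are built into this scaling. With it the sign changed for Rpl10 (-0.090), Rpl13a (-0.010), Rplp2 (-0.047), Rps3 (-0.0048), Rpl39 (-0.083), Rpl7 (-0.017), Rps4x (-0.060) and Rps27 (-0.094). The sign changed with library size only for Rpl10 (-0.016), Rpl39 (-0.015) and Rps27 (-0.028), with 10 counts in every library for Rpl10 (-0.013), Rpl39 (-0.011) and Rps27 (-0.024), with no filter for Rps26 (0.0066) and Rpl5 (0.0035), and without both libraries named above for Rpl39 (-0.0053). With a library left out the ranges that crossed 0 were -0.79 to 0.15 for Rpl39l, -0.17 to 0.11 for Rps14, -0.0012 to 0.16 for Rps20, -0.17 to 0.11 for Rps26, -0.60 to 0.40 for Rps6, -0.50 to 0.29 for Rpl15, -0.16 to 0.15 for Rpl5, -0.19 to 0.16 for Rpl11, -0.20 to 0.22 for Rpl10, -0.0075 to 0.17 for Rpl13a, -0.022 to 0.12 for Rplp2, -0.047 to 0.44 for Rps27a, -0.16 to 0.20 for Rpl39, -0.011 to 0.16 for Rpl7, -0.061 to 0.13 for Rps4x and -0.072 to 0.090 for Rps27.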

Other observations

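Outside the family, Snhg6, a snoRNA host gene looked up after the pattern of Rps6 was seen, was at 42.4, 1.81, 1.25 and 37.0 CPM in SCA1-High-FAPs replicates 1 to 4 and 5.32, 22.9, 40.0 and 8.98 CPM in SCA1-Low-FAPs replicates 1 to 4. It was high in SCA1-High-FAPs replicates 1 and 4 and SCA1-Low-FAPs replicate 3, as Rps6 was, and its log2 fold change between the states was -0.09 (SE 1.13, edgeR adjusted p = 0.978).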
